A study of Rattus norvegicus with 12 samples.

Results

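The suppressors of cytokine signalling (SOCS) form a family of 8 genes, Socs1 to Socs7 and Cish, whose products switch off signalling from cytokine receptors. Each was read from the array row that the probe annotation pairs with that gene alone. All 8 had exactly 1 such row, so the family makes up 8 of the 18166 genes tested. RNA came from astrocytes, the supporting glia of the brain, grown from the cerebral cortex of Sprague-Dawley rats 1 day old. The cells had been dispersed with trypsin and then held 2 days in serum-free medium to lower the number of microglia and meningeal cells. There were 12 arrays in 4 groups of 3, all of them transfected with an siRNA. In 3 groups the siRNA was a control. One of these got no further agent (siCon), one got interferon-γ (siCon_IFNg), and one got interferon-γ plus an agent that the labels call just GW (siCon_IFNg_GW). In the last group the siRNA was directed at SHP and the cells got both agents (siSHP_IFNg_GW). RNA was taken after 3 h of treatment. No group received GW without interferon-γ, and none received SHP siRNA without both. SHP is read here as small heterodimer partner, a nuclear receptor encoded by Nr0b2.

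Interferon-γ, like many cytokines, acts through receptors that carry Janus kinases (JAKs). The kinases phosphorylate STAT transcription factors, and these enter the nucleus and switch on target genes. SOCS genes are among those targets, so that a cytokine raises its own inhibitors. Every family member has an SH2 domain, which binds phosphotyrosine, and a SOCS box, which recruits elongins and a cullin to mark bound proteins for degradation. SOCS1 and SOCS3 also block JAK activity directly, and in glia they are known as brakes on interferon-γ and on cytokines of the interleukin-6 family. CISH and SOCS2 bind receptors that signal through STAT5, such as the growth hormone receptor. SOCS4 and SOCS5 are known for lowering epidermal growth factor receptor signalling. SOCS6 and SOCS7 are known from insulin receptor and adaptor signalling.

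The stretches just upstream of Socs1 and Cish are shown because these genes differ in the STAT and interferon regulatory factor (IRF) motifs they hold there. Both run 5′ to 3′ on the gene's strand, cover the 250 bases before the annotated start, and come from RefSeq, assembly GRCr8. Socs1 lies at chr10:5389574-5391265 on the plus strand and its window is chr10:5389324-5389573. Cish lies at chr8:116850969-116855917 on the plus strand and its window is chr8:116850719-116850968. Capitals mark matches, on either strand, to TTCNNNGAA, the spaced palindrome bound by STAT dimers, and to GAAANNGAA, the core bound by IRF proteins.
Socs1: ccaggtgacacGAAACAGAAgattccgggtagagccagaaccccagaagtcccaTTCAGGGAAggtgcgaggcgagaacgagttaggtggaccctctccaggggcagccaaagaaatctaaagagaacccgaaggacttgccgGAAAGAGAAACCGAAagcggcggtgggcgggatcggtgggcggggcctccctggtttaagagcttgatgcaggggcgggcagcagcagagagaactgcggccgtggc
Cish: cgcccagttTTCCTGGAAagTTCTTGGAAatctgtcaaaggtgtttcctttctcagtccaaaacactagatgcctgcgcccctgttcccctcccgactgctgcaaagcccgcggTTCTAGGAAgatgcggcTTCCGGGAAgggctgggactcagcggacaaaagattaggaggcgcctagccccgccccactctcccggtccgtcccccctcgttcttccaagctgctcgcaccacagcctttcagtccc
The Cish window held 4 matches to TTCNNNGAA, which begin 241, 230, 136 and 119 bases before the start, and 0 to GAAANNGAA. The Socs1 window held 1 match to TTCNNNGAA, 196 bases before the start, and 3 to GAAANNGAA, at 239, 107 and 101 bases, the last pair overlapping. The 250-base window of Socs4 held 0 of either motif. Among 33469 upstream windows of that length, 7.67% held at least 1 TTCNNNGAA and 0.00598% (2 windows) at least 4. At least 1 GAAANNGAA stood in 8.12%, at least 3 stood in 0.0388% (13 windows), and 0.902% held both motifs. A match describes letters only and is no measure of binding. The sequence table matched 5 of the 8 members, without Socs2, Socs5 and Socs7. The windows of Socs3 and Socs6 did not begin at the annotated gene end and are not used here.

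Levels are log2 values as deposited, and nothing in the labels says that the 3 arrays of a group came from separate cultures. The p-values therefore rest on the spread among the arrays as hybridised, part or all of which could be technical. Every member lay above background on all 12 arrays. Background was taken as 5.34, the 95th percentile of olfactory and vomeronasal receptor genes. Arrays with title number 1 stood apart from numbers 2 and 3 in every group, and these number 1 arrays deviated together. Over 7 measured meningeal and vascular markers, for example, the number 1 arrays averaged 6.56 to 6.93 and the other 8 arrays 7.95 to 8.49, and the group means of Lum and Cldn5 were under background. For the members, values with the number as a block or without number 1 are therefore also given where the call differs. The fit without number 1 keeps only numbers 2 and 3 of each group, and number 1 was left out because it was seen to stand apart. Its p-values rest on the spread between numbers 2 and 3, so a smaller p there is not stronger evidence than over 12 arrays. The 8 measured astrocyte markers averaged 9.96 to 10.43 on the arrays, with 0 at background. By group mean the 13 microglia markers were all above background as well, as were the 7 measured oligodendrocyte lineage markers. Of 6 neuron markers, all but Snap25 and, in siCon and siCon_IFNg_GW, Tubb3 were above it. The changes therefore cannot be assigned to astrocytes alone, and fewer cells of a type cannot be told apart from less RNA per cell. Nr0b2, the target of the SHP siRNA, had group means of 4.96, 4.80, 4.80 and 4.96, under background throughout. It differed by 0.16 (SE 0.14, limma adjusted p = 1.00) between siSHP_IFNg_GW and siCon_IFNg_GW, so the arrays do not show whether the siRNA lowered its target.

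**Figure D1:**
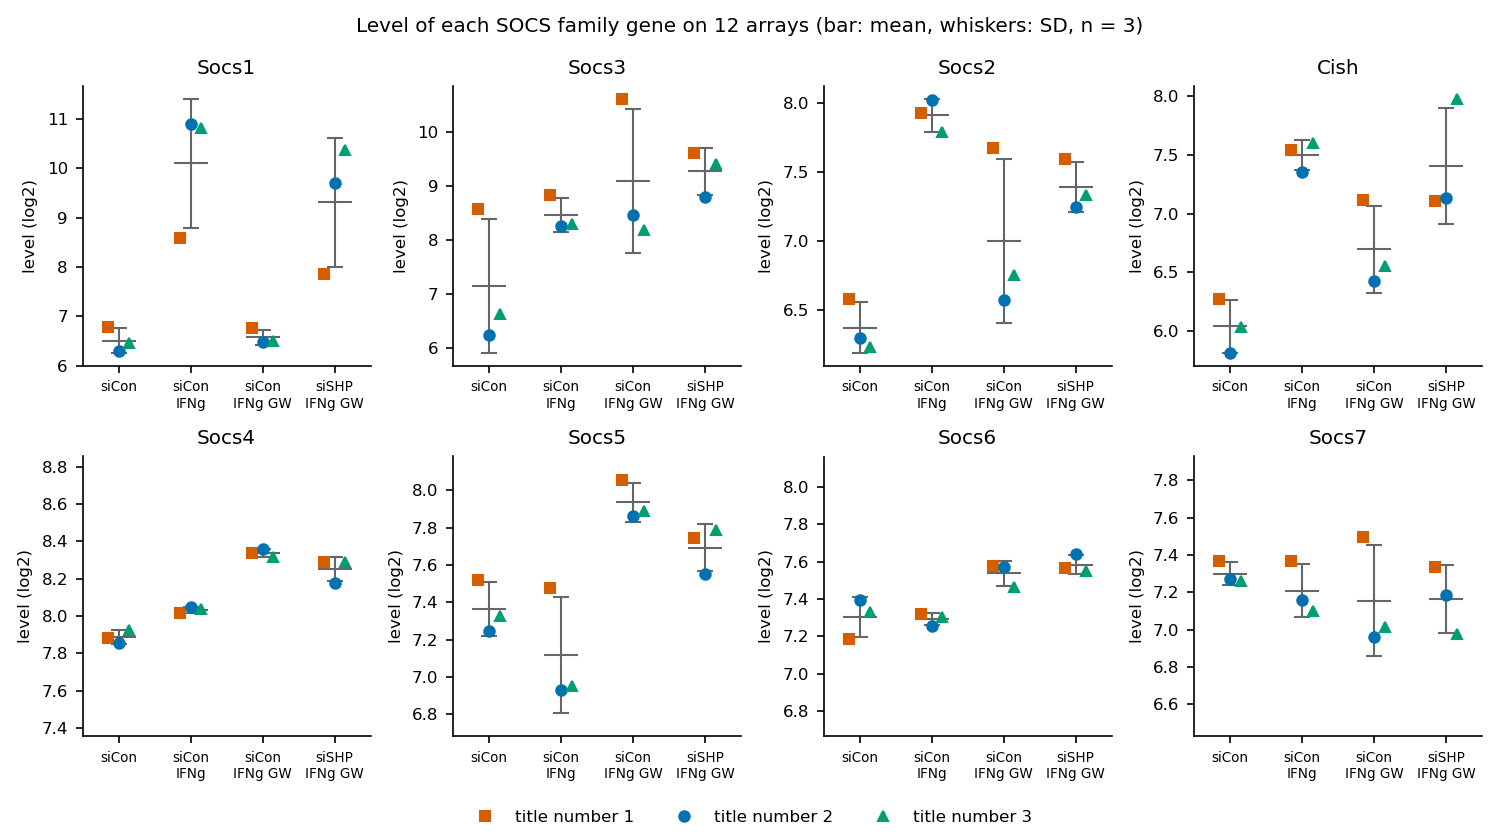
Level of each SOCS family gene (log2, vertical axis, own scale in each panel) in the 4 groups, with a marker for each array by title number, the mean as a bar and the SD as whiskers (n = 3). Socs1 was high on the siCon_IFNg and siSHP_IFNg_GW arrays and near its siCon level on all 3 siCon_IFNg_GW arrays, while the Socs4 group means, with SDs of 0.016 to 0.066, ran from 7.89 in siCon to 8.34 in siCon_IFNg_GW.

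Interferon-γ alone went with higher levels of Socs1, Socs2 and Cish, and GW together with interferon-γ left Socs1 near its untreated level. Over all 12 arrays Socs2 was the member that passed the test for interferon-γ, where 0.121% of all genes did. With the replicate number as a block Socs1, Socs2 and Cish passed, against 0.936% of all genes. For GW in the presence of interferon-γ, Socs1 fell and Socs5 rose, against 0.886% of all genes called. With the block Socs2 and Cish also fell and Socs4 also rose there, making 5 of 8 members against 6.55% of all genes. The threshold was an adjusted p of 0.05 by limma with Benjamini-Hochberg adjustment over all 18166 genes. Both comparisons use the same siCon_IFNg arrays, so their values for a member are not independent.

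Socs1, which blocks JAK1 and JAK2 and is the main brake on interferon-γ signalling, had the widest range of the family. Its levels were 6.79, 6.29 and 6.45 on siCon arrays 1, 2 and 3, and 8.59, 10.90 and 10.82 with interferon-γ. With interferon-γ and GW they were 6.75, 6.48 and 6.49, and with SHP siRNA, interferon-γ and GW they were 7.85, 9.70 and 10.37. The interferon-γ arrays lay above every siCon and every siCon_IFNg_GW array, and number 1 was the lowest of them. The difference from siCon was 3.59 on the log2 scale, or 12.1-fold (SE 0.66, limma adjusted p = 0.0975; 0.0166 with the block). By number it was 1.80, 4.61 and 4.37. Without number 1 it was 4.49 (adjusted p = 1.16e-05, where 4.71% of all genes passed), and without siCon_IFNg replicate 1 alone 4.35 (adjusted p = 0.0163).

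With GW added, Socs1 lay near its siCon level. It fell by 3.52 against interferon-γ alone, or 11.5-fold (SE 0.66, limma adjusted p = 0.0377; 0.0067 with the block), and the changes by number were -1.83, -4.41 and -4.32. Against siCon the level with interferon-γ and GW differed by 0.07 (SE 0.66, adjusted p = 0.988). The 2 groups overlapped, and siCon arrays ranged more widely (SD 0.25) than those with GW (SD 0.15). The fall kept its call without siCon_IFNg replicate 1 (adjusted p = 0.0062) and lost it without any other array of its groups. The values were 0.168 without siCon_IFNg replicate 2 and also without replicate 3, and 0.076, 0.17 and 0.128 without siCon_IFNg_GW replicates 1, 2 and 3, while the change stayed between -3.61 and -3.12.

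The number 1 arrays, singled out because they were seen to stand apart, had smaller Socs1 changes. In a model with separate means for number 1, which has 1 array per group there and takes the spread from numbers 2 and 3, the change with interferon-γ was smaller in number 1 by 2.69 (SE 0.33, limma adjusted p = 0.0064). The change with GW was less negative by 2.53 (adjusted p = 0.0078). Of all genes, 2.43% and 3.02% passed these tests of the difference.

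Socs3 blocks JAKs bound to gp130, the shared receptor of the interleukin-6 family, and is induced by STAT3. Its siCon arrays lay far apart, at 8.57, 6.26 and 6.64. With interferon-γ they were at 8.84, 8.26 and 8.31, with GW added at 10.62, 8.47 and 8.19, and with SHP siRNA as well at 9.62, 8.80 and 9.41. The number 1 array was the highest of each group, and siCon replicate 1 exceeded the 2 lower interferon-γ arrays, so those groups overlapped. In siCon, number 1 exceeded the mean of numbers 2 and 3 by 2.13 (SE 0.26, limma adjusted p = 0.0010), in a test that 23.1% of all genes passed.

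The Socs3 difference with interferon-γ was 1.32 (SE 0.67, limma adjusted p = 0.957; 0.183 with the block). By number it was 0.27, 2.01 and 1.67, and without number 1 it was 1.84 (adjusted p = 0.00188). Adding GW to interferon-γ made a difference of 0.63 (SE 0.67, adjusted p = 0.843), with changes by number of 1.78, 0.21 and -0.12. Without number 1 this difference was 0.05 (adjusted p = 0.923), and number 1 differed from the others by 1.74 (adjusted p = 0.0478). Against siCon, interferon-γ with GW gave a difference of 1.94 (SE 0.67, adjusted p = 0.265) that was alike in the 3 numbers, at 2.05, 2.22 and 1.55. With the block it passed (adjusted p = 0.0162), as did Socs4 and Socs5 and 6.84% of all genes. The same 3 members passed without number 1, where 5.66% of all genes did. Each siCon_IFNg_GW array stood above the siCon array of its number. The groups still overlapped, as siCon replicate 1 (8.57) exceeded siCon_IFNg_GW replicates 2 and 3 (8.47 and 8.19).

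**Figure D2:**
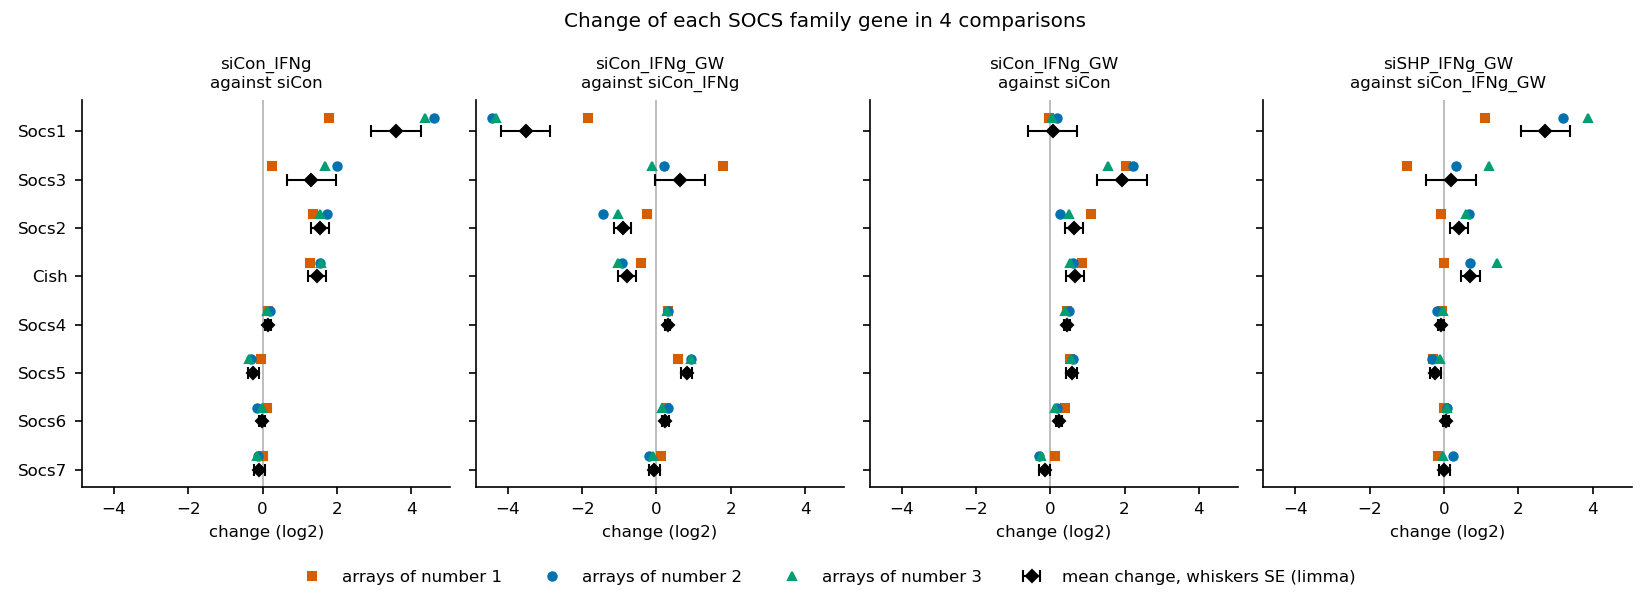
Change of each SOCS family gene (log2, horizontal axis) in 4 comparisons, with the limma mean and SE (diamond and whiskers, 12 arrays) and the change between arrays of the same title number above it. Socs1 changed by 3.59 with interferon-γ and by -3.52 when GW was added, and in both panels the number 1 marker lay closest to 0.

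Socs2, a brake on growth hormone and STAT5 signalling, was at 6.58, 6.30 and 6.24 on the siCon arrays and at 7.93, 8.02 and 7.79 with interferon-γ. With GW added it was at 7.67, 6.58 and 6.75, and with SHP siRNA as well at 7.60, 7.25 and 7.33. The interferon-γ arrays were the highest 3 of the 12. The rise with interferon-γ was 1.54, or 2.91-fold (SE 0.24, limma adjusted p = 0.0456; 0.00448 with the block), and alike by number at 1.35, 1.72 and 1.55. The size of the change held at 1.47 to 1.64 without any single array of its groups, but the call did not. The adjusted p was 0.0543, 0.261 and 0.235 without siCon replicates 1, 2 and 3, and 0.0573, 0.214 and 0.171 without siCon_IFNg replicates 1, 2 and 3.

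With GW added, Socs2 was lower than with interferon-γ alone on every array. The difference was -0.91 (SE 0.24, limma adjusted p = 0.134; 0.0167 with the block), or -0.25, -1.45 and -1.03 by number. Without number 1 it was -1.24 (adjusted p = 3e-04, where 11.5% of all genes passed), and without siCon_IFNg_GW replicate 1 alone -1.25 (adjusted p = 0.0125). Number 1 differed from the others in this change by 0.99 (adjusted p = 0.0321). Against siCon, Socs2 with interferon-γ and GW was higher by 0.63 (SE 0.24, adjusted p = 0.327; 0.0612 with the block).

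Cish encodes the founding member of the family, a STAT5 target that binds the erythropoietin and interleukin-2 receptors, and its upstream window held the 4 STAT motifs printed above. Its levels were 6.27, 5.82 and 6.03 in siCon and 7.54, 7.36 and 7.60 with interferon-γ. They were 7.12, 6.42 and 6.55 with GW added, and 7.11, 7.13 and 7.98 with SHP siRNA as well. Neither the siCon arrays nor those with GW reached any array with interferon-γ alone. The difference with interferon-γ was 1.46, or 2.75-fold (SE 0.25, limma adjusted p = 0.0714; 0.0118 with the block), at 1.27, 1.54 and 1.57 by number. Without number 1 it was 1.56 (adjusted p = 0.0092). With GW added it was lower by 0.80 than with interferon-γ alone (log2 -0.80, SE 0.25, adjusted p = 0.198; 0.0487 with the block), at -0.42, -0.94 and -1.05 by number. Without number 1 this difference was -0.99 (adjusted p = 0.0368). Cish with GW stood above siCon by 0.66 (SE 0.25, adjusted p = 0.311, or 0.0898 with the block).

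Socs4 and Socs5, brakes on epidermal growth factor receptor signalling, had another pattern, with their highest group means under interferon-γ with GW. Socs5 was at 7.52, 7.25 and 7.33 in siCon and at 7.48, 6.93 and 6.95 with interferon-γ. It was at 8.06, 7.87 and 7.89 with GW added and at 7.74, 7.55 and 7.79 with SHP siRNA as well. All 3 siCon_IFNg_GW arrays exceeded every other array. Socs5 rose by 0.82 with GW, or 1.76-fold (SE 0.15, limma adjusted p = 0.0356; 0.0025 with the block), and by 0.58, 0.94 and 0.94 in the 3 numbers. The call held without siCon_IFNg replicate 1 (adjusted p = 0.0048), but not without siCon_IFNg replicate 2 or 3 (0.154 and 0.15) or siCon_IFNg_GW replicate 1, 2 or 3 (0.0832, 0.121 and 0.102). Interferon-γ alone made a difference of -0.25 (SE 0.15, adjusted p = 1.00; 0.379 with the block) between groups that overlapped. Against siCon, interferon-γ with GW gave 0.57 (adjusted p = 0.129; 0.0121 with the block).

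Socs4 varied little between the arrays of a group, with SDs of 0.016 to 0.066. It was at 7.88, 7.86 and 7.93 in siCon, at 8.02, 8.05 and 8.04 with interferon-γ, at 8.34, 8.36 and 8.32 with GW added and at 8.29, 8.17 and 8.29 with SHP siRNA as well. No group overlapped another. Interferon-γ with GW exceeded siCon by 0.45, a rise of 1.36-fold (SE 0.074, limma adjusted p = 0.0223), in a comparison where 0.864% of all genes passed, and by 0.45, 0.50 and 0.39 in the 3 numbers. Without any 1 array of these groups the rise stayed between 0.43 and 0.47. The adjusted p was then 0.0651, 0.126 and 0.0755 without siCon replicates 1, 2 and 3, and 0.0713, 0.119 and 0.0657 without siCon_IFNg_GW replicates 1, 2 and 3. The step with interferon-γ alone was 0.15 (SE 0.074, adjusted p = 0.957), and the step on adding GW was 0.30 (SE 0.074, adjusted p = 0.108; 0.0356 with the block).

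Socs6 and Socs7, which act on insulin receptor and adaptor signalling, passed no test in the comparisons made here, over 12 arrays or with the block. Socs6 was at 7.19, 7.40 and 7.33 in siCon, at 7.32, 7.26 and 7.30 with interferon-γ, at 7.58, 7.57 and 7.46 with GW added and at 7.57, 7.64 and 7.55 with SHP siRNA as well. The arrays of both GW groups lay above all arrays without GW, with a difference of 0.24 from interferon-γ alone (SE 0.084, limma adjusted p = 0.256; 0.101 with the block). Socs7 ranged over all 12 arrays from 6.96 to 7.50, and its 4 group means lay between 7.16 and 7.30. The Socs7 differences were -0.09 with interferon-γ and -0.05 on adding GW (SE 0.15 each).

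Markers of microglia had lower mean values in the GW groups. Their mean over 13 genes was 8.64 to 8.78 on the interferon-γ arrays and 8.26 to 8.40 on those with GW added, and 11 of the 13 were negative, with a median of -0.44. Over the 12 arrays 0 of them passed by limma, and 7 were lower with the block. In that comparison 50.8% of all genes were positive, 0.886% passed over 12 arrays and 6.55% with the block. Against siCon, all 13 markers were negative in siCon_IFNg_GW, with a median of -0.54. There Tyrobp passed over 12 arrays and 11 with the block, beside the calls of Socs3, Socs4 and Socs5. Of all genes 46.6% were positive there, 0.864% passed over 12 arrays and 6.84% with the block. In siSHP_IFNg_GW against siCon all 13 markers were negative too (median -0.43), with 0 past the threshold over 12 arrays and 8 with the block. All genes were 42.4% positive in this comparison, and 1.2% passed over 12 arrays and 8.64% with the block. With interferon-γ alone, 12 of the 13 markers were negative, with a median of -0.18, where 40.1% of all genes were positive. The part of these markers in the members' changes was not tested.

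SHP siRNA under interferon-γ and GW went with higher Socs1, but the test over all genes made no call. In that comparison 0% of genes passed over 12 arrays, where 416 had an unadjusted p under 0.05, and 0% passed with the block, where 972 did. Socs1 was higher by 2.73, or 6.63-fold (SE 0.66, unadjusted p = 0.0018, limma adjusted p = 1.00; 0.471 with the block), and ranked 15 of all genes by p. By number the differences were 1.10, 3.21 and 3.88. Without number 1 Socs1 differed by 3.54 (adjusted p = 1e-04) and Socs2 by 0.63 (adjusted p = 0.0312), the 2 members called there against 1.47% of all genes. For Socs1 the difference was smaller in number 1 by 2.45 (adjusted p = 0.0229), a test that 0.721% of all genes passed.

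For Cish the SHP siRNA difference was 0.71 (SE 0.25, unadjusted p = 0.0154, limma adjusted p = 1.00), at -0.01, 0.71 and 1.43 by number, so that only numbers 2 and 3 were higher. For Socs2 it was 0.39, at -0.08, 0.67 and 0.58. Socs3 gave 0.18, with -1.01, 0.32 and 1.22. Socs5 differed by -0.24 (limma adjusted p = 0.906 with the block) and Socs4 by -0.08 (0.999), and Socs6 (0.05) and Socs7 (0.01) lay close to 0. Against interferon-γ alone, the group with SHP siRNA and GW had 0 members past the threshold, where 0.303% of all genes passed. There Socs1 differed by -0.79 (adjusted p = 0.852), Socs2 by -0.52 (0.58) and Cish by -0.09 (0.979). With the block Socs5 passed there at 0.58 (adjusted p = 0.0198; 0.196 without it), where 3.08% of all genes did. Without number 1 the members past the threshold were Socs1 (-0.82, adjusted p = 0.0445), Socs2 (-0.61, 0.0166) and Socs5 (0.73, 0.0050), against 6.21% of all genes. Against siCon, Cish rose by 1.37 (adjusted p = 0.0289) and Socs4 by 0.36 (0.0441), where 1.2% of all genes passed. With the block Socs1, Socs2 and Socs3 also passed there, making 5 members against 8.64% of all genes. Without number 1 the same 5 and Socs5 (0.38, adjusted p = 0.0415) passed, against 10.7% of all genes.

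Those calls against siCon also changed when single arrays were left out. For Cish the adjusted p was 0.14 and 0.10 without siCon replicates 2 and 3, and 0.0691 and 0.0901 without siSHP_IFNg_GW replicates 2 and 3, while the call held without replicate 1 of either group. For Socs4 the adjusted p was 0.102 to 0.201, whichever of the 6 arrays was left out. The changes stayed between 1.08 and 1.52 for Cish and between 0.34 and 0.40 for Socs4.

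Ordered by group mean, Socs1, Socs2 and Cish ran from siCon through siCon_IFNg_GW and siSHP_IFNg_GW to siCon_IFNg at the top. For Socs1 the lowest 2 groups differed by less than their spread, and so did the highest 2, at 9.31 ± 1.30 and 10.10 ± 1.31 (SD, n = 3). For Cish the means were 6.04 ± 0.23, 6.70 ± 0.37, 7.41 ± 0.50 and 7.50 ± 0.12, and the upper 2 differed by less than their spread. For Socs2 the means were 6.37 ± 0.18, 7.0 ± 0.59, 7.39 ± 0.18 and 7.91 ± 0.12, and the middle 2 differed by less than their spread. Socs3 ran from 7.16 ± 1.24 in siCon through 8.47 ± 0.32 with interferon-γ and 9.10 ± 1.33 with GW to 9.28 ± 0.43 with SHP siRNA, and each of the last 3 differed from its neighbour by less than their spread. Socs4 and Socs5 had their top in siCon_IFNg_GW, and Socs6 was highest with SHP siRNA, by 0.05 over siCon_IFNg_GW. For Socs7 each group differed from the next by less than their spread.

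The genes around the family in the pathway were taken from 6 lists. Of the JAK-STAT and interferon-γ signalling genes 14 of 16 were measured, and 12 differed positively with interferon-γ, with a median of 0.31. Over all genes 40.1% were positive, with a median of -0.03. In the list 1 gene passed over 12 arrays and 3 with the block. Irf1, an interferon regulatory factor, rose by 2.91 (SE 0.23, limma adjusted p = 7.06e-04) from 8.87 ± 0.38 to 11.77 ± 0.11. With the block Jak2, the kinase on the interferon-γ receptor that SOCS1 blocks, passed at 0.98 (adjusted p = 0.0035) and Stat3 at 0.59 (0.0348). Without number 1, 7 of the 14 were higher and 0 lower, where 4.71% of all genes passed. Beside Irf1, Jak2 and Stat3, these were Irf8 (3.45, limma adjusted p = 4.85e-06), Stat2 (1.29, 2.98e-04), Irf9 (1.14, 2.09e-04) and Stat5b (0.50, 0.0188), named after their values were seen. Over 12 arrays Irf8 differed by 2.66 (adjusted p = 0.386). On adding GW 2 of the 14 were positive, against 50.8% of all genes, and the median was -0.24 against 0.00. There 0 passed over 12 arrays and Jak2 passed with the block, at -0.68 (adjusted p = 0.0067). Without number 1, 6 were lower and 2 higher on adding GW, where 11.5% of all genes passed. The lower were Irf8 (-3.16, limma adjusted p = 4.13e-06), Stat2 (-1.40), Irf9 (-1.29), Irf1 (-0.74), Jak2 (-0.67) and Stat5b (-0.51). The higher were Ifngr1 (0.38) and Stat6 (0.30).

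Other inhibitors of the pathway were also measured. Of 12 further negative regulators, such as PIAS proteins and phosphatases, 6 were positive and 6 negative with interferon-γ, with a median of 0.01 and 0 called. Without number 1, where 4.71% of all genes passed, 2 of them were higher. These were the ubiquitin-like protease Usp18 (2.30, limma adjusted p = 1.09e-04; 1.57 and 0.959 over 12 arrays) and the phosphatase Ptpn1 (1.20, adjusted p = 1.95e-04; 0.92 and 0.453 over 12 arrays), named after their values were seen. On adding GW without number 1, 4 of the 12 regulators were lower and 1 higher, where 11.5% of all genes passed. Usp18 and Ptpn1 were among the lower, with changes of -2.32 and -0.93 (limma adjusted p = 6.08e-05 and 4.8e-04). The others were Ptpn6 (-0.65, adjusted p = 0.0068) and Ptprc (-0.77, adjusted p = 0.016), and the higher gene was Pias4 (0.42, adjusted p = 0.023). On adding GW 0 passed over 12 arrays, and with the block the phosphatase Ptprc, which is also a leukocyte and microglia gene, was lower by 0.89 (log2 -0.89, limma adjusted p = 0.0058). Of the 9 partners of the SOCS box in ubiquitin ligases 0 passed in either comparison, with medians of -0.07 and -0.16. Among 18 measured proteins of 19 with a SOCS box outside the family, Spsb1, which targets inducible nitric oxide synthase, rose by 1.09 with interferon-γ (SE 0.15, adjusted p = 0.025). The call was lost without replicate 2 or 3 of either group (adjusted p = 0.115 to 0.199), with a rise of 1.03 to 1.11. The median of that list was -0.05. Without number 1, 1 gene of the list was higher and 0 lower with interferon-γ, and 2 higher and 1 lower on adding GW. On adding GW Wsb1 was higher by 0.76 with the block (adjusted p = 0.018), as was Spsb4 (adjusted p = 0.0375), which was not above background on any siCon_IFNg array and is given no fold.

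Receptors and adaptors that SOCS proteins act on were measured for 15 of 16 genes. With interferon-γ 0 passed over 12 arrays or with the block, with a median of 0.09. Without number 1, 5 were higher and 0 lower, where 4.71% of all genes passed. They were Lifr (1.16, limma adjusted p = 6.64e-04), Il4r (0.99, 5.93e-04), Irs1 (0.53, 0.0301), Csf2rb (0.52, 0.0177) and Il6st (0.41, 0.0304), named after their values were seen. Over 12 arrays Lifr differed by 0.78 (adjusted p = 0.54). On adding GW Irs2, an insulin receptor adaptor, rose by 1.60 (SE 0.29, limma adjusted p = 0.0356), by 1.56, 1.87 and 1.38 in the 3 numbers. Lifr, the receptor of leukaemia inhibitory factor, fell by 1.29 (SE 0.24, adjusted p = 0.037), at -0.30, -1.99 and -1.59 by number. Without 1 array, the Irs2 call held only when siCon_IFNg replicate 1 was left out (otherwise adjusted p = 0.0614 to 0.154), and the Lifr call was lost without replicate 2 or 3 of either group (0.132 to 0.184). Il6r was higher by 0.63 with the block (adjusted p = 0.0088). On adding GW without number 1, 2 genes of this list were higher and 3 lower, where 11.5% of all genes passed. Of the STAT3 and STAT5 target genes 17 of 20 were measured, and 0 passed over 12 arrays in either comparison. With the block the kinase Pim1 (1.54), the adhesion molecule Icam1 (1.26) and Bcl3 (1.28) were higher with interferon-γ. On adding GW Junb (1.90), Myc (1.44) and the cytokine Lif (1.96) were higher with the block and the protease inhibitor Timp1 was lower (-0.49). The list median was 0.21 with interferon-γ and 0.11 on adding GW. Without number 1, 6 of these targets were higher and 0 lower with interferon-γ, and 5 higher and 2 lower on adding GW.

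For Socs1, Socs2, Socs3 and Cish, the 5 genes with the most similar profile over the 12 arrays were found among 12432 genes above background. Likeness was the root mean square difference of log2 values after each gene was centred on its own mean. As the genes were picked by likeness over these same arrays, highs and lows shared with the member follow largely from that choice. Nearest to Socs1 were Sectm1b (0.54), Irf8 (0.55), Ifi47 (0.71), Gbp6 (0.79) and Igtp (0.79), where the median over all genes was 1.80. Irf8 is an interferon regulatory factor, and Ifi47, Gbp6 and Igtp encode interferon-inducible GTPases. Irf8 was at 6.93 ± 0.18, 9.59 ± 1.42, 7.41 ± 0.29 and 9.89 ± 1.41 in siCon, siCon_IFNg, siCon_IFNg_GW and siSHP_IFNg_GW. On the number 1 siCon array Sectm1b, Ifi47, Gbp6 and Igtp were closer to their own means than Socs1 was, and Irf8 was farther from its own.

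Nearest to Socs3 were Runx1 (0.42), Trib1 (0.49), Nr4a2 (0.52), Map3k8 (0.54) and Pim1 (0.56), against a median of 1.16. Like Socs3 these 5 genes, picked for that likeness, had their lowest group mean in siCon. Runx1, a transcription factor, was at 7.45 ± 0.51, 8.54 ± 0.44, 9.21 ± 0.74 and 9.40 ± 0.17 in the 4 groups, in the order of the Socs3 means. Socs2 and Cish shared 3 of their nearest genes. For Cish they were Prkaa2 (0.20), Spsb1 (0.26), Rnf19b (0.28), B4galt5 (0.29) and Ralgds (0.29), against a median of 0.70. For Socs2 they were Kcnn3 (0.24), B4galt5 (0.25), Stard5 (0.26), Prkaa2 (0.26) and Spsb1 (0.28), against a median of 0.67. Prkaa2, a catalytic subunit of the energy sensor AMPK, was at 8.08 ± 0.16, 9.42 ± 0.28, 8.65 ± 0.33 and 9.36 ± 0.20, and the SOCS box gene Spsb1 at 6.64 ± 0.07, 7.73 ± 0.18, 7.25 ± 0.25 and 7.67 ± 0.20.

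**Figure D3:**
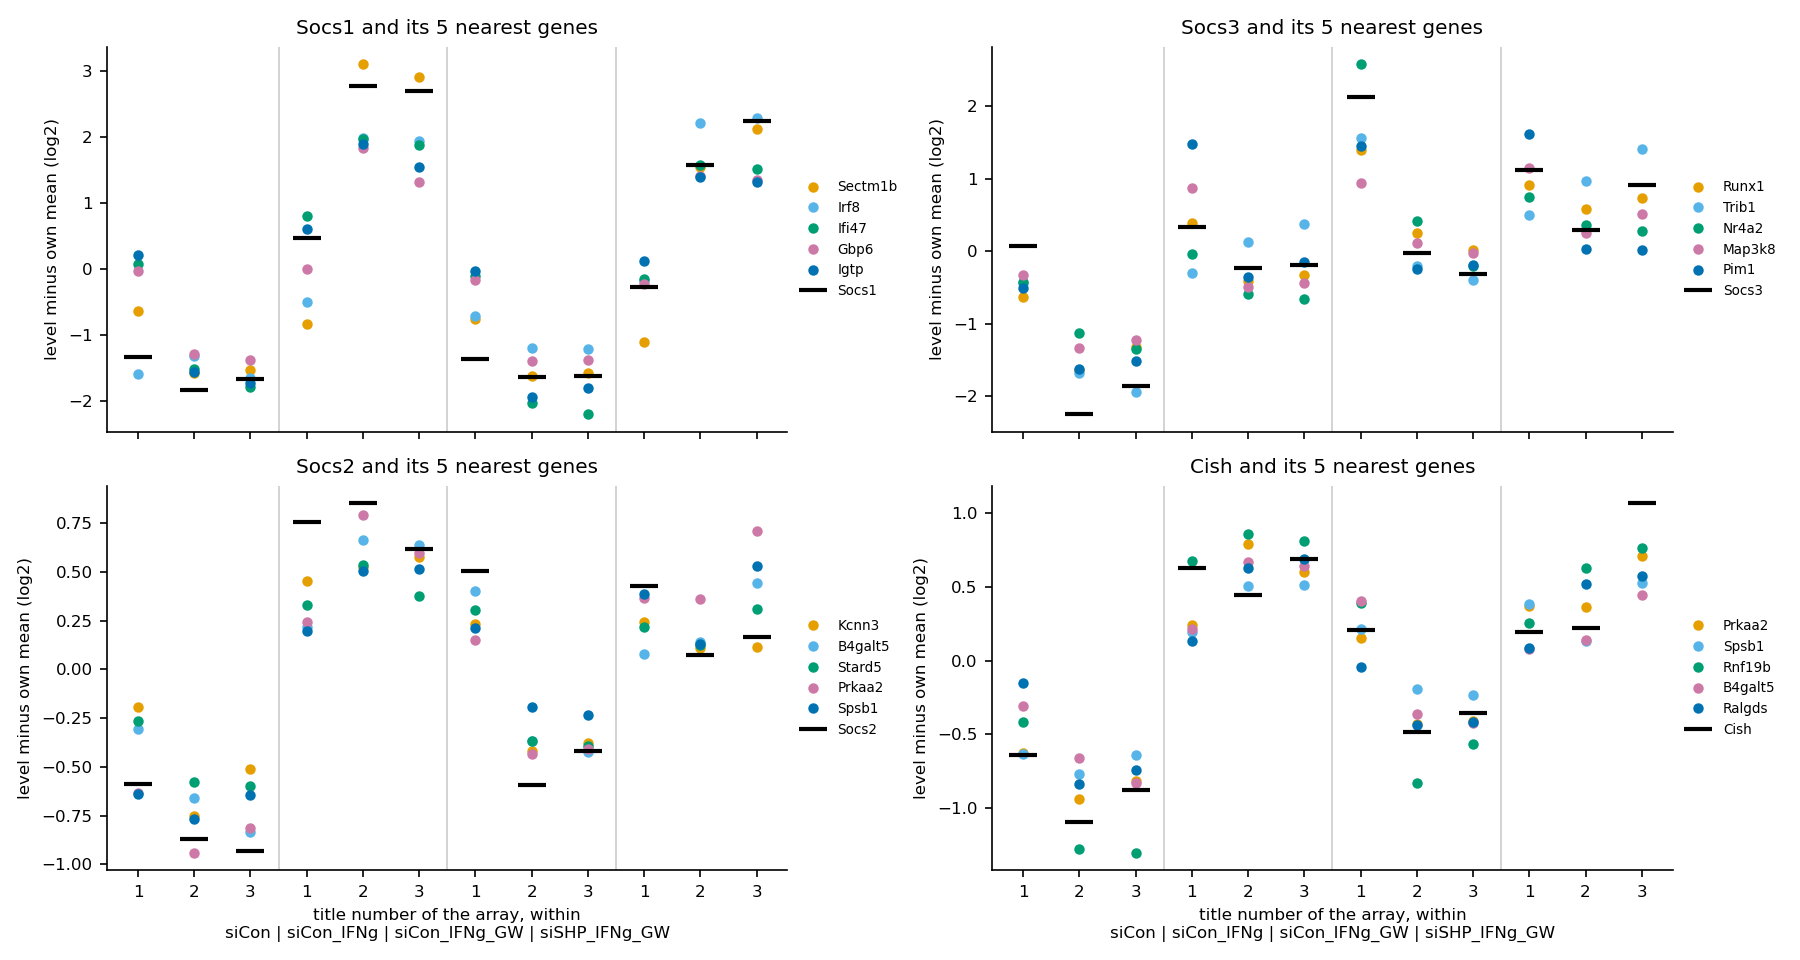
Level minus the gene's own mean over the 12 arrays (log2, vertical axis) for Socs1, Socs3, Socs2 and Cish (black dashes) and the 5 genes nearest to each (dots), by array within the 4 groups. The nearest genes of Socs1 lay below their own means on all 3 siCon_IFNg_GW arrays and above them on numbers 2 and 3 of siCon_IFNg and siSHP_IFNg_GW, and those of Socs3 lay below theirs on all 3 siCon arrays. The genes were picked for likeness over these same arrays.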

How the data were processed

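RNA of 12 arrays was labelled as sense cDNA for whole-transcript GeneChips, per the labels' protocols. The authors deposited log2 expression values, 1 per row and array. How they normalized the values is not stated in the sources at hand. Log base 2 was read from the range of 1.01 to 13.43. The series text states that 4 of the arrays also belong to an older series, without saying which titles they carry. Of 36685 rows 18511 carried 1 gene, 575 several and 17599 none. For 291 genes with several rows the row with the highest mean was used, which left 18166 genes. The table had 0 columns from other samples.

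The titles gave each array's group and number. Group means were fitted with limma 3.58.1 in R 4.3.3 on all 12 arrays, with Benjamini-Hochberg adjustment over all genes and a threshold of 0.05. The fit was also run on simulated data with independent deviations on each array. That simulation held no shift shared by the arrays numbered 1, so it cannot tell how the fit handles one. In the measured data, deviations from the group mean correlated by 0.63 to 0.77 between arrays numbered 1. They correlated by 0.48 to 0.58 between those numbered 2 and 0.43 to 0.55 between those numbered 3. Differences between numbers 2 and 3 correlated by -0.02 to 0.00 across groups, so the pairing comes from number 1. As all same-number values exceeded 0.1, a replicate block was fitted as an alternative. For numbers 2 and 3 the changes by number match arrays by title only. The comparisons of siSHP_IFNg_GW with siCon_IFNg and siCon, and its test by number, were added after the data were seen. Other alternatives were centring on array medians, quantile normalization, filters, and left-out arrays. The members and lists were chosen with earlier results of these data known. In each list up to 4 genes with the smallest p in a comparison were named if past the threshold over 12 arrays or with the block. Genes named by likeness were the 5 nearest, and Nr0b2, Irf1 and the astrocyte gene Gfap (11.91 to 11.97 in the 4 groups) were named as references. Motifs were searched on both strands of the upstream windows of a RefSeq promoter table. Signal over background, not depth, limits precision on arrays, as does the number of arrays. Plots were made in Python 3.11.15 (matplotlib 3.10.9).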

Additional observations from a re-analysis of the deposited data

Results flagged for a closer look

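Changes that differed between the arrays numbered 1 and those numbered 2 and 3 were found for 3 members, by limma in a model with a separate mean for number 1 in each group. The Socs1 change with interferon-γ differed by -2.69 in number 1 (adjusted p = 0.0064), its change on adding GW by 2.53 (adjusted p = 0.0078) and its change with SHP siRNA by -2.45 (adjusted p = 0.0229). The Socs2 change on adding GW differed by 0.99 (adjusted p = 0.0321), and the Socs3 change by 1.74 (adjusted p = 0.0478). Of all genes, 2.43%, 3.02% and 0.721% passed the tests for interferon-γ, GW and SHP siRNA. Each test sets 1 array per group against 2 and takes the spread from numbers 2 and 3 alone, and number 1 was singled out because it was seen to stand apart.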

How the results depend on the processing

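The number of members past the threshold moved with the setting, as did the number over all genes, given in brackets. For interferon-γ against siCon the number of members was 1 (22 of 18166 genes), and became 3 with the replicate block (170). It was 0 after centring on array medians (15), after quantile normalization (22) or when all 36685 rows were tested (2). For GW added to interferon-γ it was 2 (161), with 5 under the block (1189), 1 after centring (79) and 0 over all rows (83). For interferon-γ with GW against siCon it was 1 (157), with 3 under the block (1242) and 0 after centring (79) or over all rows (94). For SHP siRNA with GW against interferon-γ alone it was 0 (55), and 1, Socs5, with the block (559). Against siCon it was 2 (218), with 5 under the block (1570), 0 after centring (109), 1 after quantile normalization (225) and 0 over all rows (130). When arrays were left out the counts of members ranged from 0 to 4, 0 to 4, 0 to 3, 0 to 3 and 0 to 6 in these 5 comparisons, and from 0 to 2 for SHP siRNA under GW. The highest of each came without number 1, where 856, 2081, 1028, 1129, 1937 and 267 of all genes passed. Without number 2 or number 3, 0 genes passed, save 4 without number 3 for interferon-γ with GW against siCon. The block changed no call of a member beyond those given above. In the model with separate means for number 1, the siCon difference called 1 member, and 3 after centring. The difference in change called 1 member for interferon-γ and 2 among genes above background, 3 for GW and 1 after centring, and 1 for SHP siRNA and 2 among genes above background. Over all genes that model called 23.1% for the siCon difference, and 2.43%, 3.02% and 0.721% for these 3 differences in change. The shares under the other settings of that model were not counted.

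Signs turned only for changes near 0 or for Socs3. For Socs6 with interferon-γ the change was 0.015 after quantile normalization and -0.083 to 0.052 with arrays left out. For Socs3 it ran from -0.14 to 1.08 on adding GW and from -0.34 to 0.94 with SHP siRNA under GW. For Socs7 it ran from -0.22 to 0.046 and from -0.099 to 0.18 in the same comparisons. For Socs1 in siCon_IFNg_GW against siCon it ran from -0.041 to 0.21, and for Cish in siSHP_IFNg_GW against siCon_IFNg from -0.38 to 0.076. In the latter comparison Socs7 ran from -0.13 to 0.053. In the 6 comparisons of groups, the sign of the other member changes held in the settings tried. The cause of the lost calls was not tested.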
